A study of Mus musculus with 8 samples.

Results

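Hox genes encode homeodomain transcription factors that give the segments of the embryo their identity along the head-to-tail axis. They lie in 4 clusters, and within a cluster their order follows the order of their expression domains, with low-numbered genes acting more anteriorly and high-numbered genes more posteriorly. In the vertebral column the combination of Hox proteins in the sclerotome, the part of the somite that forms vertebrae, sets the shape of each vertebra. Genes of the same number in different clusters are paralogs and share much of their function. Here 4 Hox genes were followed in sorted Sox9-lineage cells of the mouse vertebral column, from the anterior to the posterior paralog: Hoxd4, Hoxc8, Hoxd8 and Hoxd13. Each was measured by 1 probe, so 4 of the 46643 probes and 4 of the 7111 genes with a named probe were described. The probes were found through the NCBI gene number written in the probe name. Hoxd4, Hoxd8 and Hoxd13 are genes of the HoxD cluster on chromosome 2, and Hoxc8 belongs to the HoxC cluster on chromosome 15. Where on each transcript a probe lies is not given in the sources used here.

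All embryos were of strain C57BL/6J;129 at embryonic stage E12.5, and both groups carried EGFP, a green fluorescent reporter, in the Sox9 locus, so that the cells that drive Sox9 could be sorted out of the dissected vertebral column. In the 4 WT samples EGFP was joined through an IRES to an intact Sox9 gene, in heterozygous embryos. In the 4 HOMO samples EGFP took the place of Sox9, a transcription factor needed for cartilage to form, and the embryos were chimaeras because homozygotes do not survive to this stage. Chimaeric origin and genotype therefore cannot be told apart. The study's methods speak of biological replicates but name another version of the array than the labels do, and how many embryos gave each sample is not stated.

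The measured value was the background-subtracted intensity of a probe, which can fall below 0. A probe was taken as detected on an array where its deposited detection value, which runs from 0 for dim to 1 for bright probes, was above 0.95. The arrays differed in overall signal, with a mean intensity of 328.9 ± 33.1 in WT and 7.88 ± 2.43 in HOMO, and 44.8% ± 0.85 of the probes were detected in WT against 18.3% ± 2.22 in HOMO (SD, n = 4 each). The lowest intensity of any detected probe lay between 16.5 and 18.4 on the WT arrays and between 7.9 and 9.0 on the HOMO arrays. The control probe for EGFP read 92.4 to 116.6 on the WT arrays, where it was detected, and -5.0 to -1.1 on the HOMO arrays, where it was detected on none, although both groups were sorted for EGFP. Its WT readings were below those of Hoxd13, at 154.5 to 217.5. Of the probes within that brighter range 67.0% were undetected on all HOMO arrays. The missing signal thus does not show that EGFP RNA was absent. Of 12 listed cartilage and sclerotome markers 7 had a kept probe. On the WT arrays 6 or 7 of them were detected, and on the HOMO arrays 4 or 5. In bulk RNA of this kind fewer cells that express a gene and less RNA per cell cannot be told apart.

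In WT cells all 4 Hox probes were detected on all 4 arrays. In HOMO cells Hoxc8 was detected on all 4 arrays and Hoxd4, Hoxd8 and Hoxd13 on none. Of the 21000 probes kept for testing, 45.3% were likewise detected on all WT arrays and on no HOMO array, and 24.3% were detected on all 8 arrays. After quantile normalization, 3 of the 4 Hox probes were called lower in HOMO and 1 was called higher, where over all kept probes 48.5% were called lower and 24.8% higher (limma, adjusted p at most 0.05), or 73.3% in all. On the normalized scale every HOMO array lay below every WT array for 3 of the 4 genes, as for 46.2% of the kept probes, and above for Hoxc8, as for 23.6%. Both directions were thus common among the probes of these arrays, and the counts over 4 genes set them apart in neither.

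**Figure D1:**
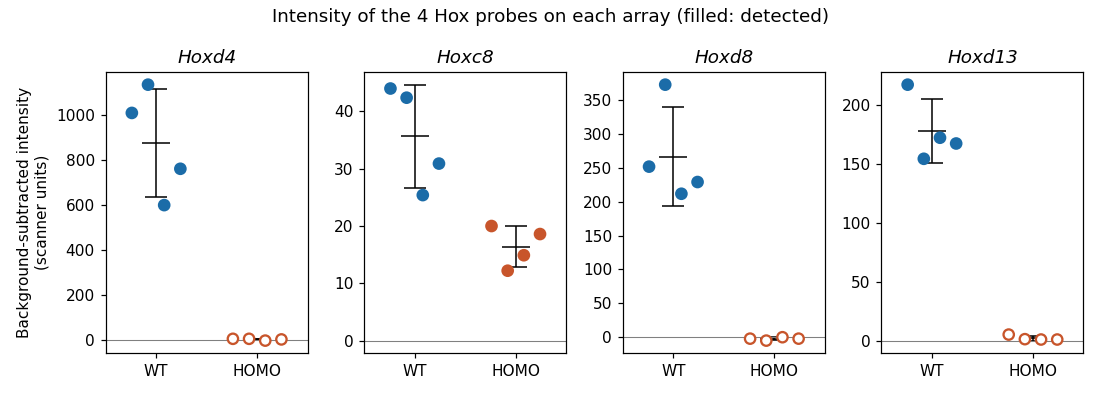
Background-subtracted intensity (scanner units, y axis, linear and scaled for each gene) of the 4 Hox probes on the 4 WT and 4 HOMO arrays, with filled points for arrays on which the probe was detected and bars for the mean and SD. Hoxd4, Hoxd8 and Hoxd13 lay at or near 0 and undetected on all HOMO arrays, while Hoxc8 was detected on all 8 arrays at 25.4 to 44.0 in WT and 12.2 to 20.0 in HOMO.

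Hoxd4, which patterns the cervical vertebrae, was the brightest of the 4 probes in WT relative to the other probes of the same array. Its intensity was 1008.7, 1134.3, 599.1 and 760.5 in WT replicates 1 to 4, and 5.0, 5.0, -3.0 and 2.3 in HOMO replicates 1 to 4. Every HOMO array thus read far below every WT array, as it did in mean intensity over all probes. Within WT, replicates 1 and 2 were higher than replicates 3 and 4. The HOMO detection values of 0.847, 0.873, 0.257 and 0.753 all stayed under the threshold. The probe stood at the 90.5th to 92.9th percentile of its array in WT, and in HOMO at the 20.3rd to 73.3rd percentile, where ranks order undetected probes only. The normalized log2 level was 8.81 ± 0.25 in WT and 5.22 ± 0.72 in HOMO (SD, n = 4 each). The fitted log2 difference, HOMO minus WT, was -3.60 with SE 0.34 (limma, adjusted p = 2.09e-05). Because the HOMO values lie below detection, the fold is given as a bound against the lowest level of any detected probe on the same arrays, and Hoxd4 was at least 3.31-fold lower on the normalized scale.

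The size of that bound can be read beside other probes as bright as Hoxd4. Of the 1990 probes that were detected on all WT arrays with a mean intensity within the WT range of Hoxd4, 23.5% were undetected on all HOMO arrays and 38.2% were detected on all of them. Among probes of this brightness the loss of detection was thus the less frequent outcome.

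Hoxc8 patterns the thoracic region of the axis, and it was the dimmest of the 4 probes in WT relative to its array. Its intensity was 44.0, 42.4, 25.4 and 30.9 in WT and 20.0, 12.2, 14.9 and 18.6 in HOMO, in the order of the replicates. The groups did not overlap, and the mean raw intensity was 2.17-fold higher in WT. The mean intensity over all probes was 328.9 in WT and 7.88 in HOMO, and the share of probes apart in raw intensity was not counted. The place of Hoxc8 within the array went the other way. The probe stood at the 62.1st to 65.9th percentile in WT and at the 88.1st to 92.2nd percentile in HOMO, and the groups did not overlap in this measure either.

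The direction of Hoxc8 therefore depended on the scale. The normalized log2 level was 5.15 ± 0.12 in WT and 8.60 ± 0.36 in HOMO (SD, n = 4 each), a difference of 3.45 with SE 0.19 (limma, adjusted p = 1.08e-06). With each array centred on its median in place of quantile normalization, the difference was -0.09 (limma, adjusted p = 0.517), in a setting in which the median of all kept probes lay at -2.26. The WT level on the quantile scale was below 7.09, the mean lowest level of a detected probe in HOMO, so detection on all HOMO arrays was enough to place the probe higher there on this scale. Of the 2542 probes within the WT intensity range of Hoxc8, 23.2% were detected on all HOMO arrays and 63.3% on none.

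Hoxd8 is the HoxD paralog of Hoxc8 and is likewise known from the thoracic part of the axis. Its intensity was 251.6, 372.5, 211.6 and 228.9 in WT and -2.1, -5.0, 0.0 and -2.1 in HOMO. All HOMO values lay at or below 0, and in WT replicate 2 stood above the other three. The probe ranked at the 81.8th to 84.6th percentile of the WT arrays and, below detection and so in no meaningful order, at the 10.4th to 45.6th of the HOMO arrays. The normalized log2 level fell from 7.23 ± 0.19 to 4.43 ± 0.09 (SD, n = 4 each), a difference of -2.80 with SE 0.14 (limma, adjusted p = 6.13e-07). The bound was only 1.1-fold, since the WT level lay just above the lowest level that was detectable in HOMO. On the log2 scale it was 0.14, smaller than the WT SD of 0.19, so the bound alone showed no decrease. Of the 2313 probes within its WT intensity range 59.5% were undetected on all HOMO arrays, so the loss of detection was the more frequent outcome at this brightness.

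**Figure D2:**
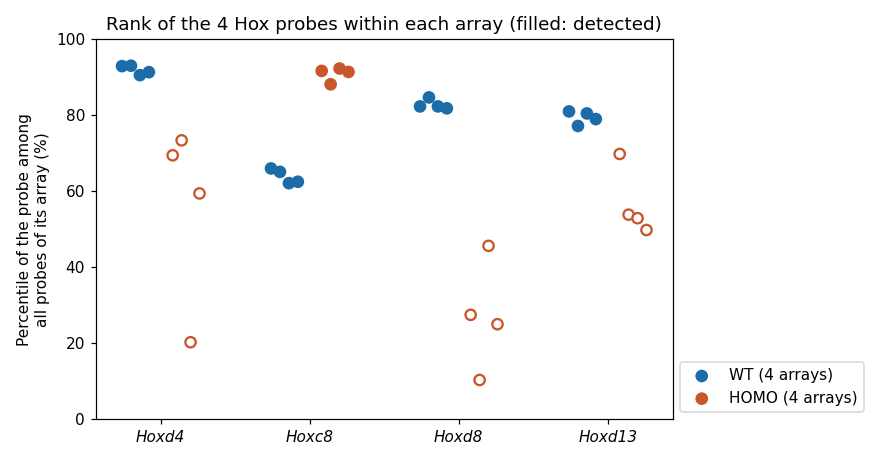
Percentile of each Hox probe among all probes of its array (y axis, 0 to 100%), in order from the anterior to the posterior paralog, for 4 WT (blue) and 4 HOMO (orange) arrays, with filled points for detected probes. Hoxc8 rose from 62.1 to 65.9 in WT to 88.1 to 92.2 in HOMO, and the other 3 genes lay lower in HOMO than in WT on every array and were undetected there.

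Hoxd13, the gene at the posterior end of the HoxD cluster, is known for its part in digits, genitalia and the caudal end of the body. Its intensity was 217.5, 154.5, 172.4 and 167.5 in WT and 5.1, 1.2, 0.9 and 0.9 in HOMO. The groups lay far apart, as they did in mean intensity over all probes. HOMO replicate 1 read above the other HOMO arrays without being detected, at a detection value of 0.848. The probe stood at the 77.1st to 80.9th percentile in WT and at the 49.8th to 69.8th in HOMO, where it was again below detection. The normalized log2 level was 6.75 ± 0.23 in WT and 4.91 ± 0.47 in HOMO (SD, n = 4 each), and the fitted difference was -1.84 with SE 0.25 (limma, adjusted p = 0.000178). No fold bound can be given, because the WT level was itself under the lowest level detectable in HOMO. Hoxd13 could thus go undetected in HOMO even if unchanged. Of the 1426 probes within its WT intensity range 67.0% were undetected on all HOMO arrays, and how many of these changed was not tested.

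**Figure D3:**
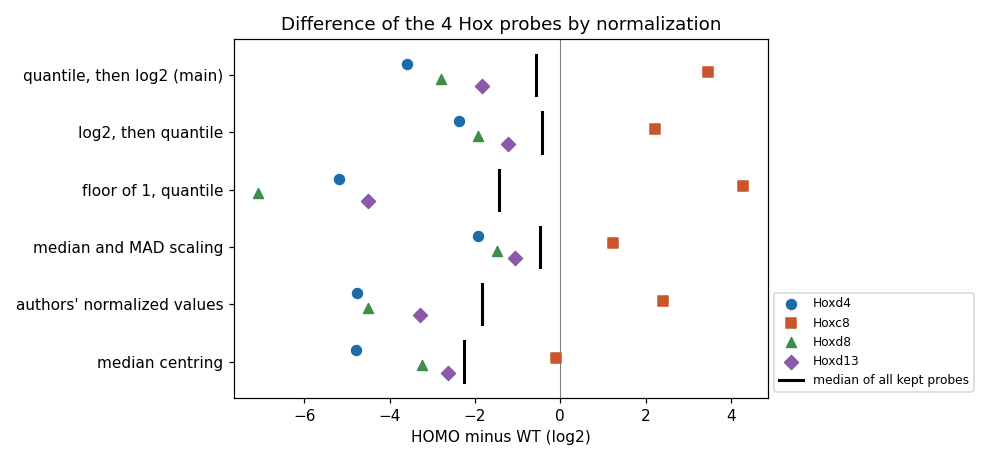
Fitted difference of the 4 Hox probes (x axis, HOMO minus WT, log2) under 6 ways of scaling the arrays (y axis), with a black bar for the median of all kept probes in the same setting. Hoxd4, Hoxd8 and Hoxd13 lay below 0 and below the median in each setting, and Hoxc8 lay above the median in each but at -0.09 with median centring.

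How strongly each gene varied among the WT arrays, where all 4 were measured, could be compared without the HOMO data. The coefficient of variation of the raw intensity was 27.5% for Hoxd4, 25.2% for Hoxc8, 27.3% for Hoxd8 and 15.4% for Hoxd13. The arrays that were high differed by gene. On the normalized scale Hoxd4 deviated from its WT mean by 0.19, 0.22, -0.28 and -0.13 in replicates 1 to 4, and Hoxd13 by 0.22, -0.30, 0.14 and -0.06. The most anterior and the most posterior gene thus had their lowest values on different WT arrays.

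The root mean square difference of 2 such profiles measures how unlike they are. It was lowest for Hoxd4 and Hoxc8, at 0.12, and highest for Hoxd8 and Hoxd13, at 0.34. Among the other Hox genes that were kept, the WT profile nearest to Hoxd8 was that of Hoxd3, at 0.047 over the 4 WT arrays. For Hoxd4 it was also Hoxd3, at 0.157, while for Hoxd13 and Hoxc8 it was Hoxa9, at 0.164 and 0.117.

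Over all 4498 named genes detected on all 4 WT arrays, the profiles most like that of Hoxd4 were Chtf8, Unc5b and Dusp14, with differences of 0.024 to 0.028. Those nearest to Hoxc8 were Gne, Myl12b and A930004D18Rik, and those nearest to Hoxd8 were Eef1b2, Ric8b and Top1. For Hoxd13 they were Por, Psmg3 and Camkk2. With 4 arrays and this many genes, close profiles arise readily, so these names describe the libraries only.

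Markers of other cell types also differed among the WT arrays. The summed intensity of the 10 kept neuron markers was 7383 and 11148 in WT replicates 1 and 2, where Hoxd4 was high, and 3148 and 3634 in replicates 3 and 4, where it was low. The 5 kept markers of neural progenitors summed to 2070 and 3284 in replicates 1 and 2 and to 1085 and 1270 in replicates 3 and 4. In HOMO the neuron markers summed to 32.7 to 51.5, and 2 or 3 of the 10 were detected on each array. Of these 10 genes 8 were called lower, 1 was called higher and 1 was not called. Over all kept named genes 48.7% were called lower and 23.1% higher. Map2 and Syt1, among those called lower, were undetected on all HOMO arrays with a WT level under the lowest detectable there. Their change was thus not measured. The neuron marker called higher was Snap25, a protein of synaptic vesicle fusion, which was detected on 2 WT and all 4 HOMO arrays (log2 difference 4.05, limma, adjusted p = 1.31e-06). Its WT level of 4.82 was below 7.09, the mean lowest level of a detected probe in HOMO. Detection on all HOMO arrays was thus enough to place Snap25 higher there on this scale. In raw intensity it read 16.1 to 19.3 in HOMO. In WT it read 15.5 and 16.3 in replicates 1 and 2, where it was undetected. It read 22.2 and 25.4 in replicates 3 and 4, where the lowest detected intensities were 16.5 and 18.1. So near the detection limit, its order among the WT arrays could not be set against that of the other neuron markers.

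Limb mesenchyme is a known site of Hoxd13 expression, and the summed intensity of its 3 kept markers was 368.5 to 497 in WT and 14.9 to 26.3 on the dimmer HOMO arrays. On the normalized scale the direction was mixed, since Tbx4 and Tbx5 were called higher in HOMO, by 1.31 and 2.19 on the log2 scale, and Prrx1 lower (limma, adjusted p = 0.00146, 0.00148 and 0.000482). Tbx4 was detected on only 1 HOMO array and Tbx5 on 2. The list's lowest summed WT value was in replicate 2, as for Hoxd13, and its highest in replicate 4, where Hoxd13 was not highest. The 3 kept endothelial markers summed to 709.4 in WT replicate 1 and to 176.9 to 263.7 in the other WT arrays, and the 3 kept blood markers to 5934 and 2000 to 3196. Hoxd13 and Hoxc8 were also highest in WT replicate 1. In HOMO the blood markers summed to 26.0 to 650.6 and the endothelial markers to 21.2 to 41.8. Of these 6 genes Pecam1, Eng and Hbb-b1 were called higher in HOMO on the normalized scale and none lower. Over all kept named genes 23.1% were called higher and 48.7% lower. In raw intensity Pecam1, Eng and Hbb-b1 read lower on every HOMO array than on every WT array. The mean intensity over all probes was also lower in HOMO, at 7.88 against 328.9 in WT. The share of all probes apart in this way was not counted. Pecam1 was detected on only 1 HOMO array. No tailbud marker had a named probe. The part of these cell types in the Hox values was not tested.

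The HoxD cluster could be followed through 6 genes with a named probe. In cluster order they are Hoxd3, Hoxd4, Hoxd8, Hoxd11, Hoxd12 and Hoxd13. In WT the anterior genes Hoxd3, Hoxd4 and Hoxd8 and the last gene Hoxd13 were detected on all 4 arrays, and Hoxd11 and Hoxd12 between them on none. In the RefSeq annotation of GRCm38.p6 the span of Hoxd3 holds that of Hoxd4, so the 2 probes may not be independent where their transcripts overlap.

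Hoxd3, which acts at the base of the skull and the first cervical vertebrae, read 258.8, 370.1, 207.3 and 212.8 in WT and -0.5, 1.4, 0.2 and -1.3 in HOMO, undetected on all HOMO arrays. Its fitted log2 difference was -2.64 (SE 0.15, limma, adjusted p = 1.18e-06). The bound of 1.08-fold, 0.12 on the log2 scale, was smaller than the WT SD of 0.21, so the bound alone showed no decrease. Like Hoxd8, it was highest in WT replicate 2.

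Hoxd11 and Hoxd12 are the posterior genes next to Hoxd13. Hoxd11 read 12.7, -1.1, 10.5 and 10.2 in WT, and Hoxd12 read 13.2, 13.5, 5.7 and 11.5. Both were under the detection threshold on every array of either group and were not kept for testing. At this signal their expression was not detectable, which does not show that it is absent.

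**Figure D4:**
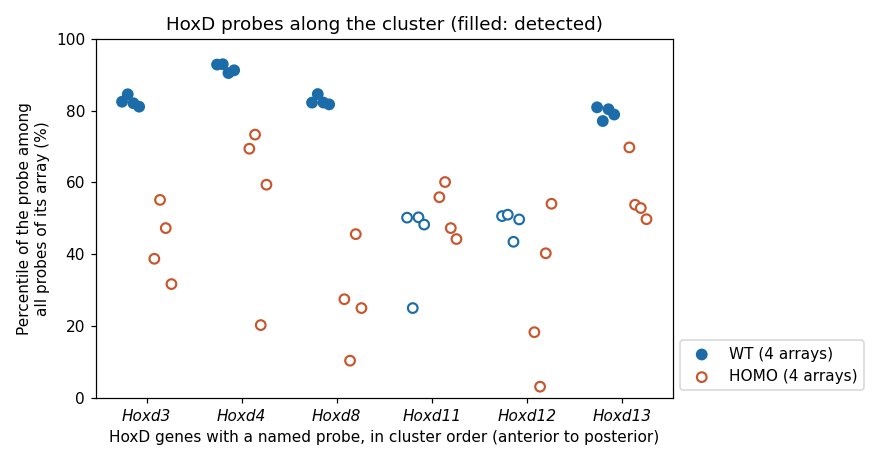
Percentile within the array (y axis, 0 to 100%) of the 6 HoxD genes with a named probe, in cluster order from anterior to posterior (x axis), for 4 WT (blue) and 4 HOMO (orange) arrays, with filled points for detected probes. In WT the probes of Hoxd3, Hoxd4, Hoxd8 and Hoxd13 stood at 77.1 to 92.9 and were detected, whereas Hoxd11 and Hoxd12 stood at 25.0 to 51.0 undetected, and in HOMO none of the 6 was detected.

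Of 39 mouse Hox genes 16 had a named probe, and 9 of these were detected on all 4 WT arrays, 3 on all 4 HOMO arrays and 11 on no HOMO array. Besides the 4 genes above, 5 of the 12 others passed the filter on detection. Among these 5, 1 was called lower in HOMO (Hoxd3) and 0 were called higher. Over all named genes that were kept, 48.7% were called lower and 23.1% higher, together 71.8%. The median log2 difference of the 5 genes was -0.08, against -2.32 over the 4 genes and -0.62 over all named genes. The 4 genes were chosen with earlier results of these data known, and Hoxc8 among them differed by 3.45. Undetected on all HOMO arrays were 3 of the 4 genes and 2 of the 5, so these medians are descriptive only.

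Hoxa7 and Hoxb2 were, with Hoxc8, the Hox genes detected on all 8 arrays. Hoxb2 patterns the hindbrain, and Hoxa7 the thoracic axis. Hoxa7 read 1024.4 to 1336.0 in WT and 11.0 to 54.7 in HOMO, and its normalized level differed by 0.01 with SE 0.39 (limma, adjusted p = 0.983). The 95% interval of that difference ran from -0.89 to 0.91, so changes within it could not be told from none. Hoxb2 read 1418.1, 2110.5, 840.9 and 924.0 in WT, highest in replicates 1 and 2 as Hoxd4 was, and 19.9 to 38.2 in HOMO, with a log2 difference of 0.42 (SE 0.24, limma, adjusted p = 0.148). Without WT replicate 2, its highest array, Hoxb2 was called higher at 0.60 (limma, adjusted p = 0.0325).

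Hoxa9, a gene of the lower thoracic and lumbar axis, was detected on 2 HOMO arrays and differed by -0.08 (SE 0.38, limma, adjusted p = 0.864). Hoxc4 shares the HoxC cluster with Hoxc8 and read 28.8, 44.2, 22.0 and 30.8 in WT, a range much like that of Hoxc8. In HOMO it read 3.4, 2.3, -4.3 and 0.8 and was undetected on all arrays, and its log2 difference was -0.31 (SE 0.19, limma, adjusted p = 0.166). The WT level of Hoxc4, 5.05, was under 7.09, the mean lowest level of a detected probe in HOMO, so its change was not measured. The calls of the 5 genes depended on the scaling. With median centring all 5 were called lower, Hoxa7 at -4.23 and Hoxb2 at -4.18, where the median of all kept probes lay at -2.26. With scaling to a common median and median absolute deviation, Hoxa9, Hoxc4 and Hoxd3 were called lower and Hoxb2 higher. Hoxd3 was called lower in each of these settings.

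Of the 7 Hox genes not kept, Hoxb8 and Hoxb13 were detected on 1 WT array each and Hoxa3 on 1 HOMO array. Hoxa13, Hoxb7, Hoxd11 and Hoxd12 were detected on no array.

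Hox proteins bind DNA together with TALE homeodomain cofactors of the Pbx, Meis and Pknox families. Of 9 listed cofactors 5 were kept, of which 2 were called higher and 2 lower in HOMO. Over all kept named genes 23.1% were called higher and 48.7% lower. Pknox1 was detected on all 8 arrays and differed by 0.99 (limma, adjusted p = 0.0249). Pbx4 differed by 0.80 (limma, adjusted p = 0.0183). For neither Pbx4 nor Pknox2 was the change measured, since both were undetected on all HOMO arrays with a WT level under the lowest level detectable there. Pknox2 was called lower at -0.36 (limma, adjusted p = 0.0468), a call lost without WT replicate 1, 3 or 4, without HOMO replicate 2, 3 or 4, and with the replicate number as a block (adjusted p = 0.0676). Pbx3 was not called, at -0.41 (limma, adjusted p = 0.329). The direction of Pknox1 turned with the scaling. It was called lower with median centring, at -2.79 (limma, adjusted p = 2.23e-08), and with the authors' normalized values, at -0.84 (limma, adjusted p = 0.0132). Its higher call was also lost without WT replicate 3 or 4 and without HOMO replicate 1 or 2. The same held with scaling to a common median and median absolute deviation, at -0.01 (limma, adjusted p = 0.965). It held too with no filter on detection (limma, adjusted p = 0.0504) and with each probe's own variance. Pbx4 was likewise called lower with median centring, at -1.16, and lost its call without WT replicate 4. Its call was also lost with scaling to a common median and median absolute deviation, at -0.15 (limma, adjusted p = 0.148). With the authors' normalized values Pbx4 was not called either, at 0.22 (limma, adjusted p = 0.411).

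Among genes that set Hox expression from outside the clusters, 2 of 15 were kept. Zbtb16, a zinc finger repressor, came out higher by 2.45 (limma, adjusted p = 0.000291), but was detected on 1 WT and 2 HOMO arrays only. Gdf11, a secreted factor that sets the position of the trunk-to-tail transition, differed by -0.34 and was not called (limma, adjusted p = 0.0575). It was undetected on all HOMO arrays with a WT level under the lowest detectable there, so its change was not measured.

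Polycomb proteins keep Hox genes silent outside their domains, and Trithorax proteins keep them active within them. Of 8 kept Polycomb genes 6 were called lower and 0 higher, and of 5 kept Trithorax genes all 5 were called lower, where 48.7% of all kept named genes were called lower and 23.1% higher. Bmi1, a core subunit of Polycomb repressive complex 1, read 352.0 to 585.1 in WT and -1.6 to 3.4 in HOMO. It was called lower (limma, adjusted p = 2.23e-06), with a bound of 1.76-fold. Rnf2, its ubiquitin ligase partner, was called lower at -2.62 (limma, adjusted p = 2.92e-06). Its bound of 1.02-fold, 0.02 on the log2 scale, was smaller than the WT SD of 0.30, so the bound alone showed no decrease. Ash2l, a subunit of the histone H3 lysine methyltransferase complexes, was called lower (limma, adjusted p = 1.87e-07), with a bound of 2.81-fold. The methyltransferase Ash1l was also called lower (limma, adjusted p = 2.07e-07), with a bound of 2.44-fold. Rbbp4 and Kdm6a were also called lower, with fitted log2 differences of -1.60 and -0.68. Cbx8 and Rbbp5 were called lower as well, but were undetected on all HOMO arrays with a WT level under the lowest detectable there, so that their change was not measured. Over the 4 lists 20 of 53 genes were kept, 3 were called higher, 13 lower and 4 were not called, and 12 were undetected on all HOMO arrays. Of the 4890 named genes kept, 2077 were undetected on all HOMO arrays.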

How the data were processed

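Total RNA of sorted cells was labelled with biotin and hybridized to 8 Illumina WG-6 arrays. The authors deposited background-subtracted intensity values from GenomeStudio (no version stated). Beside them they deposited a detection p-value column, read here as 1 minus a p. Their deposited normalized table holds log2 values, whose centring per probe is not stated. The tables were joined by equal rows of values. Zero-padded numbers in probe names were read as NCBI gene numbers, since 84.3% of the 7551 five-digit ones were mouse gene numbers, against 15.3% of all five-digit numbers.

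Intensities were corrected with normexp (offset 16), quantile-normalized and taken to log2 in limma 3.58.1 (R 4.3.3). Probes detected (value above 0.95) on at least 3 of 8 arrays were kept, with 5 control probes left out. WT and HOMO were compared with limma (two-sided) and Benjamini-Hochberg adjustment over 21000 kept probes, with calls made up to an adjusted p of 0.05. Bounds took the lowest level of a detected probe on each array, averaged over the group. They carry no error of their own, and the p-values test the fitted differences. The procedure was tested on simulated data, in which unequal brightness of the groups led to calls among unchanged probes. The number of arrays limits the precision, and p-values measure only the spread between these samples. Figures and tables used Python 3.11.15.

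The 4 genes and all gene lists were chosen with earlier results of these data known. Named were every Hox gene with a named probe, the genes of each cofactor and regulator list with the smallest p (at most 4 a list, of which 1 gene is not reported here), and the 3 genes whose WT profile was nearest to each of the 4 genes. Alternatives covered scaling, background, filters, a replicate block and leaving out each array.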

Additional observations from a re-analysis of the deposited data

Results flagged for a closer look

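The intensity and the normalized level of each gene in each group were examined for a sample far from the others by Dixon's criterion. Of these 16 checks 3 flagged one. Chance alone gives about 1 in 20 for a single check, but both scales hold the same measurements, so the checks are not independent. The normalized log2 level of Hoxd8 in WT replicate 2 was 7.51, while the other WT arrays lay between 7.09 and 7.16. The intensity of Hoxd13 in HOMO replicate 1 was 5.1, while the other HOMO arrays lay between 0.9 and 1.2, all undetected. The normalized log2 level of Hoxd13 on the same array was 5.61, against 4.63 to 4.72 on the other HOMO arrays.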

How the results depend on the processing

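Of 197 values recomputed under 12 alternatives and with each array left out, 178 kept their direction and their side of the threshold or, for counts, stayed within 1.5 times. For Hoxd4, Hoxc8, Hoxd8 and Hoxd13 this held for 76 of 77. A change of the filter, of the variance estimate or to a replicate block leaves each fitted difference as it is. In those settings only the adjusted p could move, not the direction. With median centring Hoxc8 turned to -0.094, the share of calls higher in HOMO was 4.25% in place of 33.9%, 5 other Hox genes were lower, and 1 cofactor or regulator was higher. With median and MAD scaling 3 other Hox genes were lower and 1 was higher. With the authors' normalized values the share of higher calls was 18.1%, 4 other Hox genes were lower and 1 cofactor or regulator was higher. With no filter on detection the share was 44.6% and 1 other Hox gene, Hoxa3, was higher. Among probes detected on all 8 arrays 3683 were called, against 15396, with 78.6% higher, 0 other Hox genes lower (2 tested), 1 cofactor or regulator lower and 1 higher (4 tested). Hoxd4, Hoxd8 and Hoxd13 gave no value there, since fewer probes pass. The causes of these moves were otherwise not tested.

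With 1 array left out, the log2 difference ranged from -3.97 to -3.37 for Hoxd4, 3.32 to 3.72 for Hoxc8, -2.98 to -2.49 for Hoxd8 and -2.18 to -1.67 for Hoxd13. Probes called ranged from 13987 to 15398 and the share of higher calls from 32.4% to 34.2%. Other Hox genes called numbered 1 lower throughout and 0 to 1 higher (1 without WT replicate 2), and cofactors and regulators 12 to 14 lower and 1 to 3 higher (1 without WT replicate 4 or HOMO replicate 1). Over the other alternatives Hoxd4 ranged from -5.19 to -1.92, Hoxd8 from -7.07 to -1.47 and Hoxd13 from -4.49 to -1.05. Log2 before quantile normalization was an alternative added after seeing the data. The weak signal of the HOMO arrays limits every fold below their detection.

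Deviations of same-numbered WT and HOMO arrays from their group means correlated between -0.033 and 0.028. Whether the numbers pair the samples could not be decided this way. Of the kept probes 45.3% were detected on all WT arrays and on no HOMO array, so their HOMO deviations lay below detection. With the replicate number as a block 14804 probes were called, and all 4 Hox genes kept their calls (limma, adjusted p from 0.000121 to 0.000638).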
